A study of Mus musculus domesticus and Mus musculus domesticus x Mus musculus castaneus and Mus musculus castaneus with 27 samples.

Results

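The genes described here encode the 3 transforming growth factor beta (TGF-beta) ligands Tgfb1, Tgfb2 and Tgfb3, the receptors Tgfbr1, Tgfbr2 and Tgfbr3, and the latent TGF-beta binding proteins Ltbp1, Ltbp2 and Ltbp3. They were chosen by symbol, and all 9 of 9 were found by Ensembl identifier among the 27071 genes of the deposited count table. Polyadenylated RNA was sequenced from mouse pluripotent stem cells (PSC), undifferentiated cells that can form all tissues of the body, and from motor neurons (MN), which connect the spinal cord to muscle and were derived from stem cells in a dish. The stated purpose of the study was to describe the transcriptional identity of lines used to compare neurite growth between mouse subspecies. BL6 stands for the inbred strain C57BL/6J, CAST for CAST/EiJ and 129 for 129S6/SvEv, while the F1 hybrids labelled CAS129 and 129CAS are described as Mmd x Mmc crosses. Of the 20 libraries analysed, 6 were PSC, with 2 each of BL6, CAST and CAS129. The other 14 were MN, with 7 of BL6, 3 of CAS129, 2 of 129 and 1 each of CAST and 129CAS. No treatment, time point or age is labelled for them, and the labels do not say how many clones stand behind a line or whether replicates were separate cultures. P-values therefore measure how these samples spread, and that spread may be technical. PSC of 129 and 129CAS were not analysed here.

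TGF-beta ligands are secreted in a latent form, wrapped in their own propeptide, and Ltbp1 and Ltbp3 bind this complex covalently and tether it to the extracellular matrix, while Ltbp2 shares their fold without that covalent bond. Integrins, thrombospondin and proteases can free the ligand, which binds the type II receptor Tgfbr2 and then the type I receptor Tgfbr1, a kinase that phosphorylates Smad2 and Smad3. Tgfbr3, or betaglycan, is a co-receptor without kinase activity that presents ligand, above all the product of Tgfb2, and in the nervous system the pathway is known for roles in neuron survival, axon formation and the scar after injury.

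The genes lie on 8 chromosomes of GRCm38, and all are annotated as protein-coding in GENCODE M21. Tgfb1 (ENSMUSG00000002603) is at chr7:25687002-25705077 on the plus strand, Tgfb2 (ENSMUSG00000039239) at chr1:186622792-186705989 on the minus strand and Tgfb3 (ENSMUSG00000021253) at chr12:86056745-86079041 on the minus strand. Tgfbr1 (ENSMUSG00000007613) is at chr4:47353222-47414931 on the plus strand, Tgfbr2 (ENSMUSG00000032440) at chr9:116084293-116175360 and Tgfbr3 (ENSMUSG00000029287) at chr5:107106570-107289629, the latter pair on the minus strand. Ltbp1 (ENSMUSG00000001870) is at chr17:75005568-75392512 on the plus strand, Ltbp2 (ENSMUSG00000002020) at chr12:84783212-84876532 on the minus strand and Ltbp3 (ENSMUSG00000024940) at chr19:5740904-5758532 on the plus strand.

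Because family members resemble each other, their coding sequences were searched for identical runs in which a read could not be assigned. The coding sequences of Tgfb1 and Tgfb3 share at most 15 identical bases in a row, shown here with 20 bases on either side and the shared run in capitals. The longest run among the binding proteins, 24 bases, joins Ltbp1 and Ltbp2. The windows read 5′ to 3′ on the coding strand, from the GENCODE M21 transcripts on GRCm38, and are exonic coding sequence.
Tgfb1, coding bases 1100 to 1154: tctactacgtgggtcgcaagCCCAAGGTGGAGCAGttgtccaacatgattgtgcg
Tgfb3, coding bases 1166 to 1220: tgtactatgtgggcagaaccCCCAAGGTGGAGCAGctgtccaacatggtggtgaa
Ltbp1, coding bases 3809 to 3872: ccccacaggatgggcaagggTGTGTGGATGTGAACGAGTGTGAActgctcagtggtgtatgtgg
Ltbp2, coding bases 5258 to 5321: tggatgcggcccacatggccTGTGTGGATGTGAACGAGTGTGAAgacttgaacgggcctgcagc
The ligand run lies near the 3′ end of both coding sequences, which are 1170 bases long in Tgfb1 and 1236 in Tgfb3. Tgfb2 shares at most 15 bases with Tgfb3 and 10 with Tgfb1, and the receptors share 10 or 11 with one another. The other binding protein pairs share 20 bases (Ltbp2 and Ltbp3) and 17 (Ltbp1 and Ltbp3). The sources used here give no read length.

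Libraries held 4.5 M to 13.62 M counts in PSC and 5.61 M to 44.57 M in MN. Motor neuron markers summed to 192 to 904 CPM (counts of a gene per M counts of its library, with library totals adjusted by the TMM method) in MN and 2.22 to 9.30 in PSC, and 7 pluripotency markers to 3220 to 4820 in PSC, 43.7 to 115 in MN of BL6, CAST, 129 and 129CAS, and 380 to 975 in CAS129 MN. Among motor neuron markers, Lhx3 was at 0 in all CAS129 MN and 129CAS MN libraries. The 13 mesenchyme and fibroblast markers, none at 0 in any group, summed to 264 to 3160 CPM in PSC, 15300 to 34500 in BL6 MN, 9710 in CAST MN, 6610 to 10700 in 129 MN, 22900 to 26500 in CAS129 MN and 9240 in 129CAS MN. Within each genotype, PSC library 1 had the higher mesenchyme sum: 2360 against 334 CPM in BL6, 3160 against 1280 in CAST and 1420 against 264 in CAS129. BL6 MN libraries 1, 3 and 4 had sums of 29800 to 34500 CPM and the other 4 had 15300 to 19200, while BL6 MN library 2 had the highest glial marker sum, 365 CPM against 27.7 to 65.3 in the other 6. Of 8244 genes at 10 CPM or more in BL6 and CAST PSC, 374 (4.54%) had 0 counts in all CAS129 libraries, and none of the 9 genes was among them. In bulk RNA, fewer cells of a type and less RNA per cell cannot be told apart, and the labels give different extraction kits for PSC and MN RNA, so an effect of the kit cannot be told apart from one of the cell type.

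All 9 genes passed the filter on low counts in every fit and 8 had a count in all 20 libraries. The exception was Tgfb3, with 0 counts in CAS129 PSC library 2, where 0 counts allow up to 0.512 CPM (3 counts, counting error only). Over BL6, CAST and CAS129, 8 of the 9 genes were higher in MN than in PSC and none was lower, where 36.1% of all 15596 genes tested were called higher, 38.5% lower and 74.6% in either direction. The median log2 change of the 9 genes was 3.54, against -0.05 over all genes tested. Only the co-receptor Tgfbr3 was not called. The mesenchyme sum moved in the same direction as the 8 genes, and its part in their change was not tested.

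**Figure D1:**
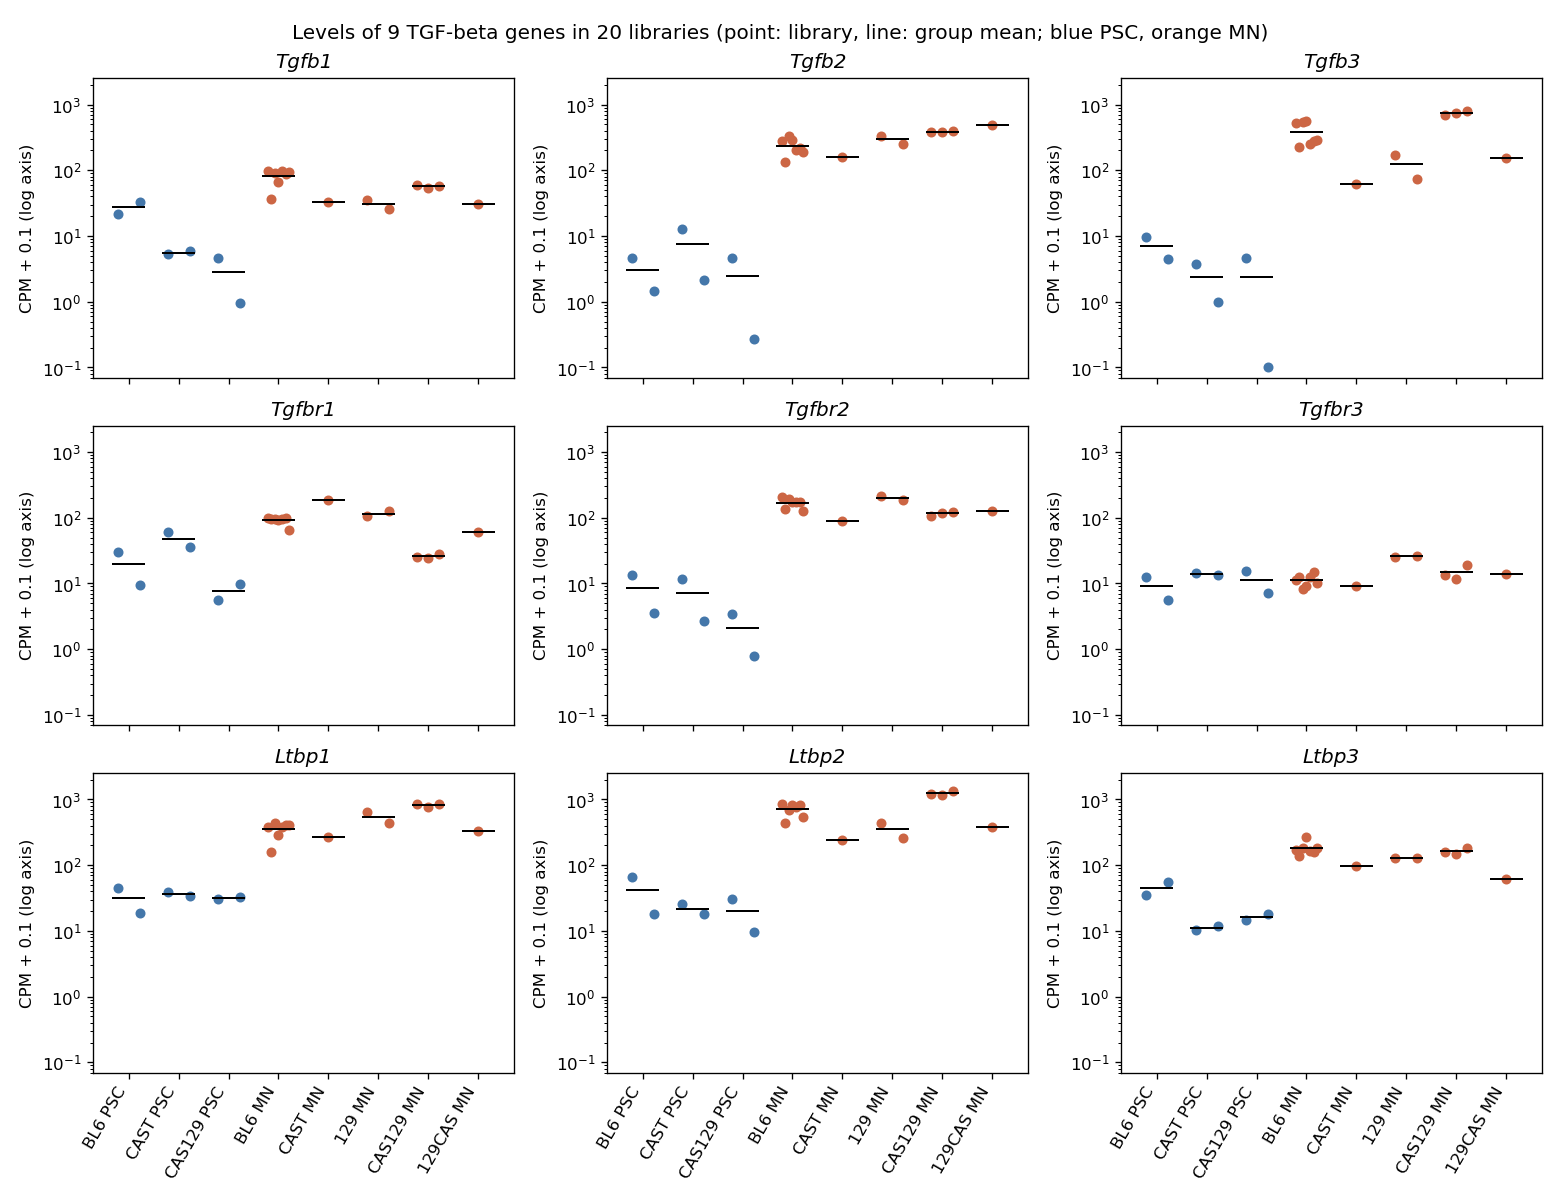
Level of each gene (CPM plus 0.1, log axis) in 20 libraries of 8 groups, with points for libraries and lines for group means. The MN points (orange) lie above the PSC points (blue) for Tgfb2, Tgfb3, Tgfbr2, Ltbp1, Ltbp2 and Ltbp3, while Tgfbr3 stays between 5.59 and 25.9 CPM throughout.

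Tgfb1, the ligand best known from immune and wound biology, measured 21.6 and 32.8 CPM in BL6 PSC, 5.28 and 5.71 in CAST PSC, and 4.54 and 0.854 in CAS129 PSC. In BL6 MN it ranged from 36.6 over a median of 89.6 to 96.5 CPM, with library 2 at the bottom. CAS129 MN had 60.2, 52.9 and 57 CPM, CAST MN 33.1, 129 MN 35.6 and 25.4, and 129CAS MN 30.2. The levels of BL6 PSC thus overlapped those of 129 and 129CAS MN, and CAST, 129 and 129CAS MN were not separated from one another. Over BL6, CAST and CAS129, Tgfb1 rose by 2.23 on the log2 scale (SE 0.39, adjusted p = 6.3e-05) from PSC to MN, a 4.68-fold change, and by 1.63 (SE 0.29) with the CAS129 libraries left out.

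Tgfb2, the ligand that depends most on betaglycan, measured 4.51 and 1.34 CPM in BL6 PSC, 12.8 and 2.02 in CAST PSC, and 4.54 and 0.171 in CAS129 PSC, the last being 1 count. In BL6 MN its lowest, median and highest values were 136, 221 and 334 CPM. CAST MN had 159 CPM, 129 MN 336 and 254, CAS129 MN 379, 377 and 396, and 129CAS MN 496. Every MN library was more than 10-fold above every PSC library. Within PSC, library 1 was above library 2 in all 3 genotypes, as was the mesenchyme sum. Tgfb2 rose by 6.05 on the log2 scale (SE 0.60, adjusted p = 8.7e-08), or 66.1-fold, and the value ran from 5.17 without PSC library 2 of all genotypes to 7.36 without PSC library 1 of all genotypes.

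Tgfb3, the ligand known for scar-poor healing and palate closure, measured 9.59 and 4.32 CPM in BL6 PSC, 3.59 and 0.896 in CAST PSC, and 4.54 and 0 in CAS129 PSC. In BL6 MN it was 516, 544 and 565 CPM in libraries 1, 3 and 4, and 227 to 288 in the other 4. These sets do not overlap, and the mesenchyme sums of the same libraries do not overlap either. CAS129 MN had 687, 733 and 797 CPM, 129CAS MN 153, 129 MN 172 and 73.6, and CAST MN 62.2. CAS129 MN thus lay above all BL6 MN, and 129CAS, 129 and CAST MN lay below all BL6 MN. Tgfb3 rose by 6.07 on the log2 scale (SE 0.66, adjusted p = 2.3e-07) from PSC to MN, by 6.69 without BL6 PSC library 1 and by 5.28 without the CAS129 libraries.

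Per kilobase of exon, genes can be compared within a library, but only roughly. The length used joins the exons of all annotated isoforms, which gives 5042 bases for Tgfb1, 5791 for Tgfb2 and 3383 for Tgfb3. On this scale, the ligand that led differed between cell types and genotypes. Tgfb1 held 54.2% and 81.2% of the summed ligand CPM per kb in BL6 PSC, and the 3 ligands together made up 7.90 and 8.01 CPM per kb there. In BL6 MN the sum was 97.6 to 236 CPM per kb, of which Tgfb3 held 57.4 to 72.6% and Tgfb1 5.62 to 14.9%. CAS129 MN had 72.4 to 74.7% Tgfb3. In the other MN groups Tgfb2 led instead, with 52.5% in CAST MN, 50.0% and 62.1% in 129 MN and 62.5% in 129CAS MN, against 21.7 to 27.8% in BL6 and CAS129 MN. In CAST and CAS129 PSC the leading ligand differed between the replicate libraries.

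**Figure D2:**
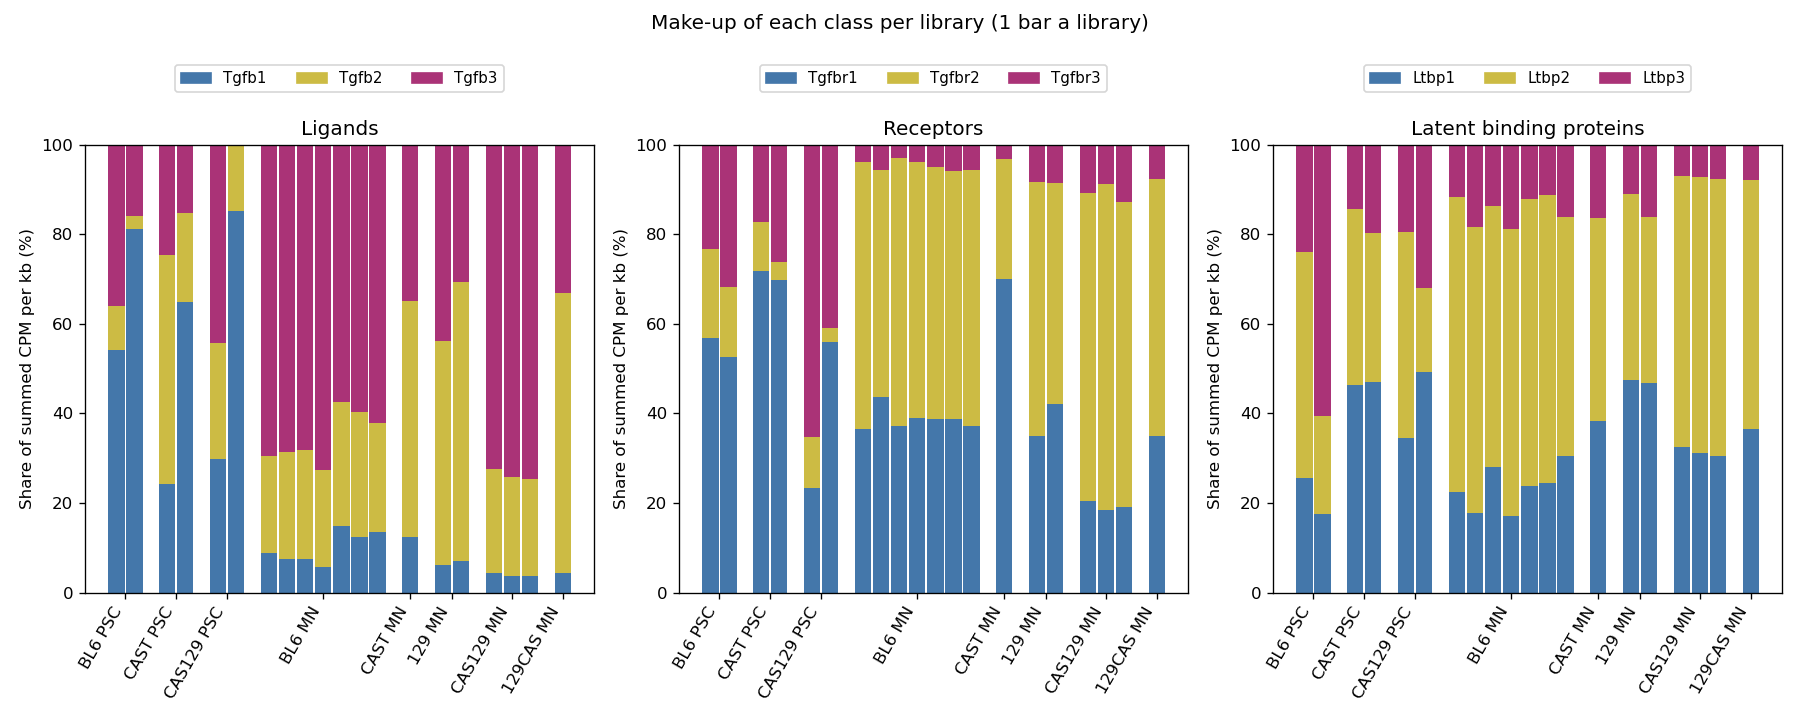
Share (%) of each gene in the summed CPM per kb of its class, with 1 stacked bar per library and groups along the x axis. Tgfb3 makes up 57.4 to 74.7% of the ligand bars of BL6 and CAS129 MN, Tgfb2 leads in CAST, 129 and 129CAS MN, and Tgfbr1 makes up 69.9% of the receptor bar of CAST MN.

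Tgfbr1, the type I receptor kinase, measured 30.2 and 9.23 CPM in BL6 PSC, 60.2 and 35.2 in CAST PSC, and 5.45 and 9.56 in CAS129 PSC. In BL6 MN, 6 libraries had 93.4 to 100 CPM and library 7 had 64.9. CAST MN was highest of all groups with 188 CPM, followed by 129 MN with 105 and 126. 129CAS MN had 61.6 CPM and CAS129 MN only 25.5, 24.1 and 28.1, below both CAST PSC libraries. Tgfbr1 rose by 1.78 on the log2 scale (SE 0.24, adjusted p = 2.5e-06), or 3.45-fold, over BL6, CAST and CAS129. It was the only 1 of the 8 genes called higher whose PSC and MN libraries of these 3 genotypes overlapped. The share of all genes without such overlap was not computed.

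Tgfbr2, the type II receptor that binds ligand, measured 13.3 and 3.43 CPM in BL6 PSC, 11.4 and 2.58 in CAST PSC, and 3.33 and 0.683 in CAS129 PSC. In BL6 MN its lowest, median and highest values were 125, 173 and 206 CPM. 129 MN had 214 and 185 CPM, 129CAS MN 126, CAS129 MN 108, 118 and 124, and CAST MN 89.9. The MN groups differed by less than 3-fold among themselves and stood clear of every PSC library. Tgfbr2 rose by 4.38 on the log2 scale (SE 0.43, adjusted p = 7.4e-08), or 20.8-fold, and by 5.06 without BL6 PSC library 1. Without PSC library 1 of all genotypes the rise was 5.56, and without PSC library 2 of all genotypes 3.66.

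Tgfbr3, betaglycan, differed least between the groups. It measured 12.4 and 5.59 CPM in BL6 PSC, 14.6 and 13.2 in CAST PSC, and 15.3 and 7.00 in CAS129 PSC. Levels in MN were 8.23 to 14.9 CPM in BL6, 9.01 in CAST, 11.6 to 18.7 in CAS129 and 13.7 in 129CAS. Only 129 MN, with 25.4 and 25.9 CPM, lay above all other libraries. The change from PSC to MN was a log2 of -0.08 (SE 0.25, adjusted p = 0.80), and its sign turned without any of several libraries, to 0.20 without BL6 PSC library 1.

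The receptor mix differed with these levels. Per kilobase, Tgfbr1 held 56.8% and 52.6% of the receptor sum in BL6 PSC and 71.8% and 69.8% in CAST PSC. In CAS129 PSC it held 23.3% in library 1, where Tgfbr3 led with 65.3%, and 55.9% in library 2, where Tgfbr3 had 40.9%. In BL6 MN Tgfbr2 led with 50.7 to 59.8% and Tgfbr1 had 36.4 to 43.6%. CAST MN stood apart with 69.9% Tgfbr1 and 26.8% Tgfbr2, and CAS129 MN had 18.5 to 20.4% Tgfbr1 and 68.0 to 72.6% Tgfbr2.

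Ltbp1, which carries latent ligand into the matrix, measured 44.2 and 18.9 CPM in BL6 PSC, 39.4 and 33.5 in CAST PSC, and 30.4 and 33.1 in CAS129 PSC. In BL6 MN its lowest, median and highest values were 158, 384 and 443 CPM, with library 2 lowest. CAST MN had 268 CPM, 129CAS MN 334, 129 MN 655 and 434, and CAS129 MN 861, 769 and 865. The CAS129 MN libraries lay above all others, while 129 and BL6 MN overlapped. Ltbp1 rose by 3.54 on the log2 scale (SE 0.31, adjusted p = 1.9e-08), or 11.6-fold.

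Ltbp2, which binds fibrillin microfibrils, measured 67.0 and 18.1 CPM in BL6 PSC, 25.6 and 18.0 in CAST PSC, and 30.9 and 9.56 in CAS129 PSC. BL6 MN had a lowest value of 436 (library 2), a median of 777 and a highest value of 866 CPM. CAS129 MN had 1230, 1170 and 1350 CPM, 129CAS MN 388, 129 MN 440 and 262, and CAST MN 243. The order of the MN groups was the same as for Tgfb3, with CAS129 above BL6 and the other 3 groups below or at the bottom of the BL6 range. Ltbp2 rose by 4.31 on the log2 scale (SE 0.44, adjusted p = 1.1e-07), or 19.8-fold, by 5.08 without BL6 PSC library 1 and by 3.68 without the CAS129 libraries. With PSC library 1 of all genotypes left out the rise was 5.14, and with PSC library 2 left out 3.69.

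Ltbp3, the binding protein known for its role in bone and teeth, measured 35.2 and 55.6 CPM in BL6 PSC, 10.3 and 11.9 in CAST PSC, and 14.5 and 18.3 in CAS129 PSC. BL6 MN ranged from 140 over a median of 170 to 270 CPM, the last in library 4. CAS129 MN had 157, 149 and 183 CPM, 129 MN 128 and 127, CAST MN 97.8 and 129CAS MN 62.1. The lowest MN library, of 129CAS, was close to the higher BL6 PSC library. Ltbp3 rose by 2.38 on the log2 scale (SE 0.22, adjusted p = 4.2e-08), or 5.20-fold. Per kilobase, Ltbp2 held 53.4 to 66.0% of the binding protein sum in BL6 MN and 60.6 to 62.0% in CAS129 MN. In 129 MN Ltbp1 led with 47.4% and 46.8%.

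Within genotypes, the same 8 genes were called higher in MN in BL6, in CAST and in CAS129, where 36.0%, 30.3% and 30.4% of 15846 genes were called higher, 34.2%, 25.7% and 23.9% lower, and 70.2%, 56.0% and 54.4% in either direction. The 3 estimates came from 1 fit over all 8 groups, so the single CAST MN library was assumed to vary like the others. Tgfb3 rose by 5.65 on the log2 scale (SE 0.76) in BL6, 4.61 (SE 0.87) in CAST and 8.25 (SE 0.92) in CAS129. For Tgfb2 the rises were 6.21 (SE 0.76), 4.27 (SE 0.77) and 7.25 (SE 0.84). Among the receptors, Tgfbr2 rose by 4.23 (SE 0.54), 3.52 (SE 0.62) and 5.76 (SE 0.65), and Tgfbr1 by 2.11 (SE 0.35), 1.81 (SE 0.44) and 1.70 (SE 0.40). Tgfbr3 had 0.20 (SE 0.32) in BL6, -0.80 (SE 0.50) in CAST and 0.33 (SE 0.37) in CAS129, none past the threshold. Tgfb1 rose by 1.43 (SE 0.37), 2.41 (SE 0.52) and 4.31 (SE 0.50). Ltbp1 rose by 3.36 (SE 0.38), 2.71 (SE 0.45) and 4.62 (SE 0.43), Ltbp2 by 3.95 (SE 0.51), 3.30 (SE 0.58) and 5.90 (SE 0.59), and Ltbp3 by 1.86 (SE 0.25), 2.96 (SE 0.33) and 3.22 (SE 0.29). With 2 PSC libraries a genotype, many of these sizes rested on which was kept. In BL6, the value without PSC library 2 and that without library 1 were 5.53 and 7.28 for Tgfb2, 1.43 and 3.15 for Tgfbr1, 3.49 and 5.45 for Tgfbr2, and 3.23 and 5.13 for Ltbp2. Without BL6 PSC library 1, Tgfb3 had 6.29 and Ltbp1 4.05. In CAS129, the values without library 2 and without library 1 were 3.36 and 5.77 for Tgfb1, 6.12 and 10.79 for Tgfb2, 7.06 and 16.22 for Tgfb3, 4.85 and 7.13 for Tgfbr2, and 5.06 and 6.75 for Ltbp2. The values 10.79 and 16.22 are fitted against a lone PSC library with 1 and 0 counts and are no bounds. In CAST they were 3.51 and 6.08 for Tgfb2, 3.98 and 5.88 for Tgfb3, and 2.84 and 4.90 for Tgfbr2. In all 3 genotypes, PSC library 1 was also the one with the higher mesenchyme sum. Ltbp3 was instead higher in PSC library 2 in all 3 genotypes, as were Tgfb1 in BL6 and CAST, and Tgfbr1 and Ltbp1 in CAS129. The part of the mesenchyme sum was not tested. The rise of Tgfbr1 in CAS129 was not called without CAS129 PSC library 1 (log2 1.16, adjusted p = 0.063).

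**Figure D3:**
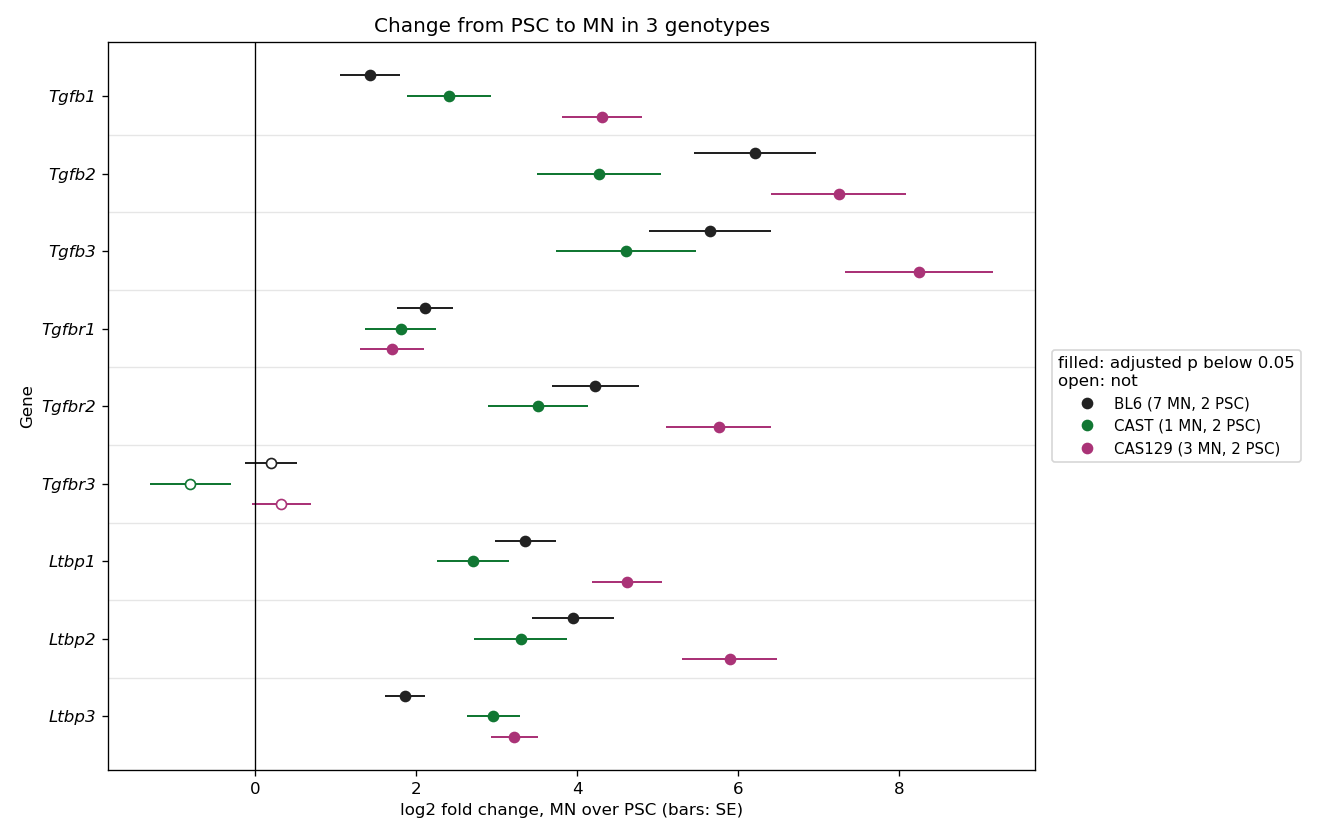
Log2 fold change of MN over PSC (x axis) with its SE for each gene (y axis) in BL6, CAST and CAS129, filled where the adjusted p was below 0.05. Tgfb1 has 1.43 in BL6 and 4.31 in CAS129, Tgfbr1 lies between 1.70 and 2.11 in all 3, and Tgfbr3 is open in all 3.

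A direct test asked whether CAS129 and BL6 differed in the size of the change. It was larger in CAS129 for 3 of the 9 genes, Tgfb1, Ltbp2 and Ltbp3, where 18.2% of all genes were called, 13.7% as higher and 4.53% as lower. The median difference over all genes was 0.26, and of the genes called 75.1% were higher, against 53.0% with RLE scaling and 50.6% with DESeq2. Tgfb1 went from 27.2 ± 7.90 (SD, n = 2) to 80.6 ± 22.2 CPM (SD, n = 7) in BL6, and from 2.70 ± 2.61 (SD, n = 2) to 56.7 ± 3.66 CPM (SD, n = 3) in CAS129. The difference between these changes was a log2 of 2.88 (SE 0.57, adjusted p = 0.0026), 2.00 without CAS129 PSC library 2 and 4.41 without CAS129 PSC library 1, called in each case. Without PSC library 2 of all genotypes it was 1.63 (adjusted p = 0.12). For Ltbp2 the difference was 1.94 (SE 0.60, adjusted p = 0.033). It was not called without BL6 PSC library 1 (0.77), CAS129 PSC library 2 (1.18), BL6 MN library 3 (1.78), 4 (1.83) or 7 (1.73), or any of CAS129 MN libraries 1 (1.80), 2 (1.83) and 3 (1.74), nor with RLE scaling (1.64, adjusted p = 0.075) or upper-quartile scaling (1.83, adjusted p = 0.053). Without CAS129 PSC library 1 it was 2.88. For Ltbp3 the difference was 1.36 (SE 0.34, adjusted p = 0.011), and it was not called without BL6 PSC library 2 (0.85, adjusted p = 0.12) or CAS129 PSC library 1 (1.09, adjusted p = 0.08). Tgfb3 had 2.60 (SE 0.93, adjusted p = 0.062), Ltbp1 1.26 (SE 0.47, adjusted p = 0.070) and Tgfbr2 1.54 (SE 0.74, adjusted p = 0.16). Tgfb2 had 1.04 (SE 0.92), Tgfbr3 0.12 (SE 0.48) and Tgfbr1 -0.41 (SE 0.50). Ltbp1 was called without BL6 PSC library 2 (1.62) or BL6 MN library 2 (1.14), and Tgfb3 without CAS129 PSC library 1, where the PSC library left has 0 counts. Without BL6 PSC library 1, Ltbp1 had 0.58 (adjusted p = 0.42), and without CAS129 PSC library 2, Tgfb3 had 1.49 (adjusted p = 0.32). With the replicate number as a block Tgfb3 was called (2.77, adjusted p = 0.044).

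In PSC, CAST and BL6 differed in 1 of the 9 genes, where 10.5% of 13795 genes were called, 5.74% as higher and 4.81% as lower. Ltbp3 was lower in CAST, at 11.1 ± 1.08 CPM against 45.4 ± 14.4 (SD, n = 2 each), a log2 change of -1.91 (SE 0.40, adjusted p = 0.020). This call was lost without BL6 PSC library 2 (-1.53), CAST PSC library 1 (-1.80) or CAST PSC library 2 (-2.05). Tgfb1 had a log2 of -2.18 (SE 0.62, adjusted p = 0.059) in the same comparison, and DESeq2 called it (-2.21, adjusted p = 0.0082), as did the fit without a filter on low counts (-2.22, adjusted p = 0.00024) and 1 fit over all 8 groups (-2.21, adjusted p = 0.0024). Tgfbr1 had 1.42 (SE 0.57, adjusted p = 0.15), in the opposite direction. The other 6 genes had log2 changes between -1.49 and 1.47 with SEs of 0.40 to 1.19.

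CAS129 and BL6 PSC differed in 2 of the 9 genes, Tgfb1 and Ltbp3, where 25.8% of genes were called, 8.72% as higher and 17% as lower. Tgfb1 was lower in CAS129 by -3.21 on the log2 scale (SE 0.66, adjusted p = 0.0087), by -2.51 without CAS129 PSC library 2 and by -4.78 without library 1. Ltbp3 was lower by -1.33 (SE 0.39, adjusted p = 0.038), a call lost without BL6 PSC library 2 (-0.95), CAS129 PSC library 1 (-1.12) or CAS129 PSC library 2 (-1.57). CAS129 and CAST PSC differed in Tgfbr1 alone, where 14% of genes were called, 2.27% as higher and 11.7% as lower. It was lower in CAS129 at 7.51 ± 2.91 CPM against 47.7 ± 17.7 (SD, n = 2 each), a log2 change of -2.63 (SE 0.60, adjusted p = 0.021), not called without CAST PSC library 1 (-2.24) or CAS129 PSC library 1 (-2.21). These comparisons share libraries and are not independent of one another.

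In MN, CAST differed from BL6 in 5 of the 9 genes, where 12.3% of 14837 genes were called, 5.76% as higher and 6.58% as lower. Tgfbr1 was higher by 1.0 on the log2 scale (SE 0.18, adjusted p = 0.0030), a 2.00-fold difference, and above all BL6 libraries. Tgfb3 was lower by -2.64 (SE 0.64, adjusted p = 0.016), Ltbp2 by -1.58 (SE 0.39, adjusted p = 0.017), Tgfbr2 by -0.94 (SE 0.24, adjusted p = 0.022) and Ltbp3 by -0.92 (SE 0.28, adjusted p = 0.048), each below all 7 BL6 libraries. How many of all genes lay outside the BL6 range was not computed. Tgfb1 had -1.31 (SE 0.42, adjusted p = 0.060), and was called without BL6 MN library 2 (-1.41, adjusted p = 0.0014) and by DESeq2. The mesenchyme sum was 9710 CPM in CAST MN against 15300 to 34500 in BL6 MN, the motor neuron sum was 904 against 265 to 735, and their part in these differences was not tested. CAST MN is 1 library, assumed to vary like the other groups. Ltbp3 was not called without BL6 MN library 1, 3, 5, 6 or 7 (-0.95 to -0.91), with RLE scaling (-0.89, adjusted p = 0.058), with upper-quartile scaling (-0.90, adjusted p = 0.057) or without a filter on low counts (-0.90, adjusted p = 0.071), and in 1 fit over all 8 groups, where PSC add to the shared spread, none of the 5 was called (adjusted p = 0.073 for Tgfb3 and 0.081 for Tgfbr1).

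The 129 and BL6 MN differed in 4 of the 9 genes, where 36.4% of genes were called, 18.3% as higher and 18.1% as lower. Tgfbr3 was higher in 129, at 25.7 ± 0.340 CPM (SD, n = 2) against 11.2 ± 2.27 (SD, n = 7), a log2 change of 1.16 (SE 0.22, adjusted p = 0.0011) that was 1.1 to 1.25 with any 1 library left out. Tgfb3 was lower by -1.65 (SE 0.43, adjusted p = 0.0089), Tgfb1 by -1.42 (SE 0.31, adjusted p = 0.0028) and Ltbp2 by -1.04 (SE 0.27, adjusted p = 0.0092). Over all genes, the share whose groups lay apart was not computed. For Tgfb1 and Tgfb3 both 129 libraries lay below all BL6 libraries, and for Ltbp2 the groups overlapped. None of these 3 was called without 129 MN library 2, the lower of the pair (Tgfb3 -1.14, Tgfb1 -1.18, Ltbp2 -0.69), and without library 1 Tgfb3 had -2.41. Ltbp3 had -0.53 (SE 0.20, adjusted p = 0.051), and was called without BL6 MN library 2 (-0.60) or 4 (-0.41), and with RLE scaling, upper-quartile scaling or DESeq2 (-0.57 to -0.56). In 1 fit over all 8 groups 2 genes were called. The mesenchyme sum was 6610 to 10700 CPM in 129 MN, below all BL6 MN, and its part in the differences was not tested.

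CAS129 MN differed from BL6 MN in 6 of the 9 genes, close to the share over all genes, of which 59.5% were called, 27.0% as higher and 32.5% as lower. Ltbp1 was higher by 1.28 on the log2 scale (SE 0.24, adjusted p = 0.00050), Tgfb3 by 1.0 (SE 0.32, adjusted p = 0.015), Ltbp2 by 0.85 (SE 0.21, adjusted p = 0.0035) and Tgfb2 by 0.74 (SE 0.21, adjusted p = 0.0084). All 3 CAS129 libraries lay above all 7 BL6 libraries for these 4 genes. The share of all genes whose groups lay apart in this way was not computed. The signalling receptors were lower: Tgfbr1 by -1.79 (SE 0.14, adjusted p = 3.0e-07) and Tgfbr2 by -0.49 (SE 0.15, adjusted p = 0.011), both without overlap. Tgfb3 was not called without CAS129 MN library 3 (0.96, adjusted p = 0.050), nor Tgfbr2 without CAS129 MN library 1 (-0.44, adjusted p = 0.056) or with upper-quartile scaling (-0.34, adjusted p = 0.066). In 1 fit over all 8 groups 4 genes were called, without Tgfb2 (0.85, adjusted p = 0.09) and Tgfbr2 (-0.38, adjusted p = 0.38). Tgfbr3 had 0.42 (SE 0.21, adjusted p = 0.099), and was called higher without BL6 MN library 6 (0.50) and with upper-quartile scaling (0.58, adjusted p = 0.029). The mesenchyme sums overlapped, at 22900 to 26500 CPM in CAS129 and 15300 to 34500 in BL6, while the pluripotency sum was 380 to 975 against 43.7 to 115. Of 8 pan-neuronal markers, Map2 was at 0 in CAS129 MN and also in 129CAS MN. The sum of these 8 was 983 to 1360 CPM in CAS129 MN against 4340 to 12200 in BL6 MN. The motor neuron sum was 194 to 227 against 265 to 735, and the sum of 5 neural progenitor markers 918 to 999 against 197 to 567. The part of these cells, and of the genes at 0 in all CAS129 libraries, was not tested.

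**Figure D4:**
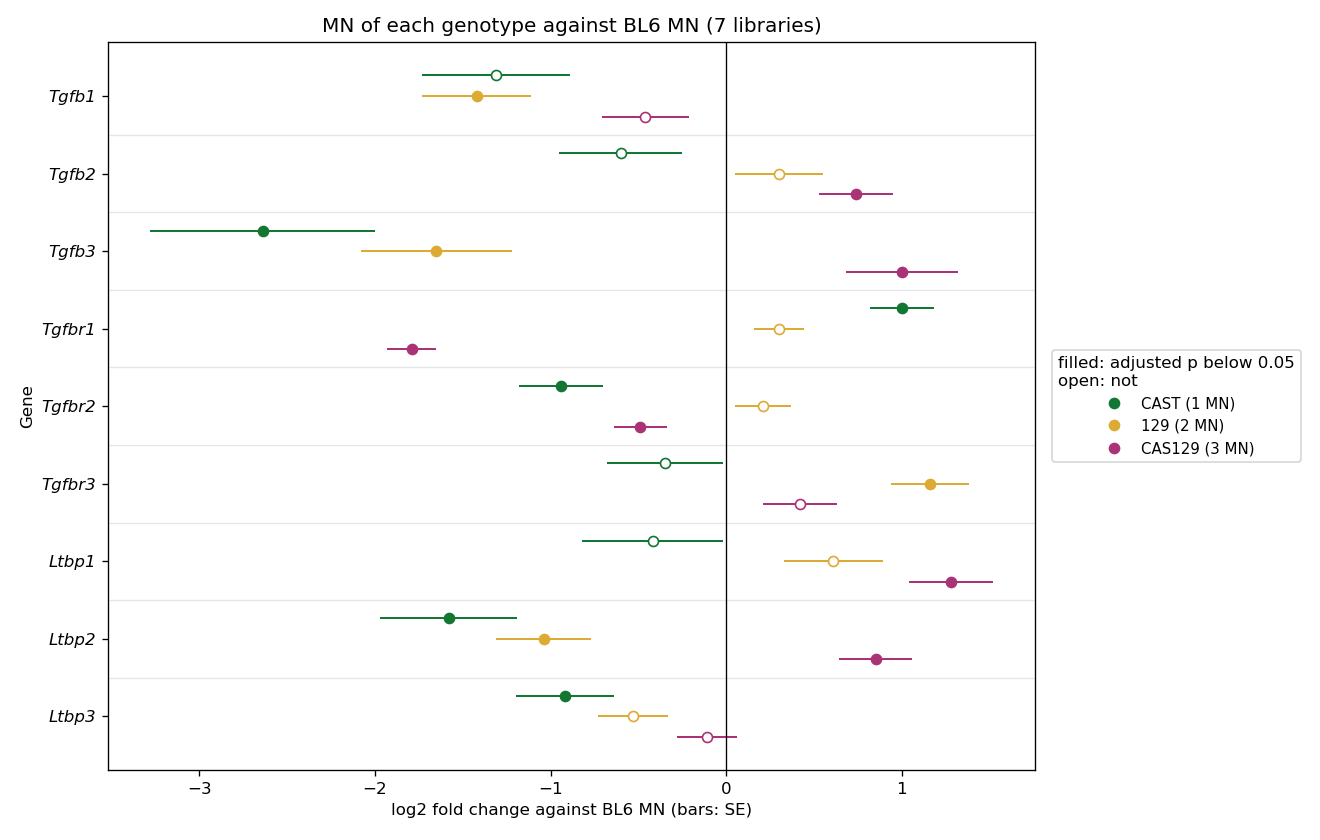
Log2 fold change against BL6 MN (x axis) with its SE for each gene (y axis) in CAST, 129 and CAS129 MN, filled where the adjusted p was below 0.05. For Tgfb3 and Ltbp2, CAST (-2.64 and -1.58) and 129 (-1.65 and -1.04) lie below 0 and CAS129 (1.0 and 0.85) above it, and for Tgfbr1 CAST (1.0) and CAS129 (-1.79) lie on opposite sides.

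Set against 129 MN, CAS129 MN differed in 6 of 9 genes, where 56.7% of all genes were called, 25.2% as higher and 31.4% as lower. Tgfb3 was higher by 2.65 on the log2 scale (SE 0.48, adjusted p = 0.00048), and by 3.41 without 129 MN library 1. Ltbp2 was higher by 1.89 (SE 0.31, adjusted p = 0.00019) and Tgfb1 by 0.96 (SE 0.33, adjusted p = 0.024). Tgfbr1 was lower by -2.08 (SE 0.17, adjusted p = 3.7e-07), Tgfbr2 by -0.70 (SE 0.19, adjusted p = 0.0059) and Tgfbr3 by -0.75 (SE 0.26, adjusted p = 0.028). Tgfb1 was not called without 129 MN library 2 (0.72) or CAS129 MN library 1 (0.91), nor Tgfbr2 without 129 MN library 1 (-0.58). Tgfbr3 was not called without 129 MN library 1 (-0.74) or 2 (-0.76) or CAS129 MN library 1 (-0.70) or 2 (-0.61), and in 1 fit over all 8 groups 3 genes were called. Tgfbr3 was also not called with upper-quartile scaling (-0.56, adjusted p = 0.091) or with the replicate number as a block (-0.75, adjusted p = 0.084). The mesenchyme sum was 22900 to 26500 CPM in CAS129 MN against 6610 to 10700 in 129 MN, the pluripotency sum 380 to 975 against 108 to 113 and the pan-neuronal sum 983 to 1360 against 3810 to 5680. The libraries held 5.61 M to 6.29 M counts against 41.75 M and 44.57 M, and the part of these differences was not tested.

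The hybrids labelled 129CAS and CAS129 differed from each other in 5 of the 9 genes, where 30.3% of all genes were called, 14.6% as higher and 15.7% as lower. The single 129CAS MN library was assumed to vary like the other groups. In it, Tgfbr1 was higher by 1.19 on the log2 scale (SE 0.21, adjusted p = 0.0013). Tgfb3 was lower by -2.33 (SE 0.64, adjusted p = 0.016), Ltbp2 by -1.74 (SE 0.41, adjusted p = 0.0070), Ltbp3 by -1.45 (SE 0.30, adjusted p = 0.0041) and Ltbp1 by -1.37 (SE 0.46, adjusted p = 0.038). Ltbp1 was not called without CAS129 MN library 1 (-1.34), 2 (-1.42) or 3 (-1.36), and in 1 fit over all 8 groups 2 genes were called. Tgfb2 (0.31, SE 0.36) and Tgfbr2 (0.05, SE 0.24) did not pass the threshold. The 129CAS library had 25.69 M counts against 5.61 M to 6.29 M, a mesenchyme sum of 9240 CPM against 22900 to 26500 and a motor neuron sum of 672 against 194 to 227, whose part was not tested. All comparisons in MN share groups, so their values are set side by side without a test between them.

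Other genes of the pathway were taken from 4 lists, whose counts stand beside the 36.1% of all genes called higher and 38.5% called lower in the same fit, and whose medians stand beside -0.05 over all genes. Of 19 genes tested that store or activate latent TGF-beta, 16 were higher and 2 lower in MN than in PSC over BL6, CAST and CAS129, with a median log2 change of 3.16. Fn1, the matrix protein fibronectin to which latent complexes attach, rose by 2.71 (SE 0.33), from 1960 to 18900 CPM in BL6. Thbs1, the activator thrombospondin, rose by 4.66 (SE 0.78), the integrin subunit Itgb1 by 3.16 (SE 0.30) and the membrane protease Mmp14 by 4.08 (SE 0.42). The fallers were Ltbp4 and Nrros, both named after their values were seen. Ltbp4, the family member outside the 9, had a log2 change of -2.25 (SE 0.26). Nrros, which holds latent TGF-beta on the cell surface, had -2.24 (SE 0.66). Nrros was low, with group means of 0.303 to 3.13 CPM in PSC and 0 to 0.927 in MN of these genotypes. Ltbp4 thus moved opposite to Ltbp1, Ltbp2 and Ltbp3: it had 265 CPM in BL6 PSC, 96.6 in CAST PSC and 73.2 in CAS129 PSC, against 55.3, 7.55 and 40.8 in MN of the same genotypes.

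Of 19 Smads and intracellular regulators, 9 were higher and 4 lower, with a median of 0.30. Among those higher, Zfyve9 had 0 CPM in CAS129 PSC and CAS129 MN, so its pooled call rests on BL6 and CAST. The 13 called of 19 are a share near the 74.6% called over all genes. Pmepa1, a feedback inhibitor, rose by 2.64 on the log2 scale (SE 0.21), and the ubiquitin ligase Smurf1 by 1.14 (SE 0.13). The corepressor Skil rose by 0.42 (SE 0.15) and the phosphatase Ppm1a by 0.30 (SE 0.12). The signal carriers Smad2 (0.09, SE 0.11) and Smad4 (0.18, SE 0.20) did not pass the threshold, Smad3 rose by 0.90 (SE 0.28), and the inhibitor Smad7 fell by 0.73 on the log2 scale (SE 0.27), the last 4 being named here after their values were seen.

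Of 10 co-receptors and extracellular antagonists, 7 were higher and none lower, with a median of 2.07. The share called is near the 74.6% over all genes. The proteoglycans Bgn and Dcn, which bind TGF-beta in the matrix, rose by 2.47 on the log2 scale (SE 0.42) and 4.20 (SE 0.72). Dcn is also 1 of the 13 mesenchyme markers, so the co-receptor list and the mesenchyme sum are not independent. The co-receptor Cd109 rose by 2.11 (SE 0.26) and the lectin Lgals1 by 2.76 (SE 0.23). In the hybrids, Lgals1 had only 1.98 CPM in CAS129 PSC, 14.2 in CAS129 MN and 14.7 in 129CAS MN. It had 151 CPM in BL6 PSC, 1080 in BL6 MN, 708 in CAST MN and 515 in 129 MN. Of 19 transcriptional targets, 17 were higher and 1 lower, with a median of 3.08, where 36.1% of all genes were higher and 38.5% lower. The smooth muscle actin gene Acta2 rose by 6.27 (SE 1.06), the collagens Col1a1 and Col1a2 by 3.14 (SE 0.52) and 3.03 (SE 0.70), and the actin-binding Tagln by 5.32 (SE 0.65), while Bhlhe40 fell by 1.54 on the log2 scale (SE 0.24). These 4 risers and Postn are also 5 of the 13 mesenchyme markers, so that list and the mesenchyme sum are not independent. Ccn2, Ccn1 and Snai1 were at 0 in all CAS129 libraries, and their pooled calls rest on BL6 and CAST.

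Between MN genotypes, the same lists moved as follows. In CAST against BL6 MN, 6 of 19 latency and activation genes and 2 of 19 targets were lower and none was higher, where 6.58% of all genes were lower and 5.76% higher, so that the count of targets is near that of all genes. Thbs1 had a log2 of -1.84 (SE 0.54), Mmp14 -1.72 (SE 0.47), the protease inhibitor Timp3 -1.76 (SE 0.46) and the matrix protein Postn -3.31 (SE 0.78), the last pair being targets. In 129 against BL6 MN, 9 of 19 targets were lower and none higher, among them Col1a1 (-1.77, SE 0.47) and Col1a2 (-2.58, SE 0.57), and 7 latency and activation genes were lower and 2 higher. Of all genes, 18.1% were lower and 18.3% higher there. In CAS129 against BL6 MN, 4 targets were higher and 6 lower, near the 27.0% and 32.5% of all genes, and Acta2 had 1.12 (SE 0.32). Mmp2 (1.1, SE 0.18) and the microfibril gene Fbn1 (0.68, SE 0.21) were higher among 4 higher and 4 lower latency and activation genes. In 129CAS against CAS129 MN, 6 latency and activation genes were lower and 1 higher, where 15.7% of all genes were lower and 14.6% higher, with Mmp14 at -1.42 (SE 0.48) and Mmp2 at -1.97 (SE 0.36), and the targets Col1a1 and Col1a2 had -2.07 (SE 0.69) and -2.66 (SE 0.82).

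As a description of how the 9 genes vary together, Pearson's r of log2(CPM + 0.5) was computed over the 20 libraries, which share the split between PSC and MN and each library's depth. Tgfb3 and Ltbp2 were most alike (r = 0.99), followed by Tgfb2 and Tgfbr2 (0.97), while Tgfbr3 had 0.04 to 0.39 with the other 8 and Tgfbr1 0.54 to 0.76 with the 7 besides Tgfbr3. Over 15846 genes, those most like each member were Mmp14 and Cnn1 for Tgfb3 (both 0.99), Tgfb3 and Ltbr for Ltbp2 (both 0.989), and Pappa and Samd4 for both Tgfb2 (0.988 and 0.984) and Tgfbr2 (0.986 and 0.989). Itgb1 and Slc25a24 led for Ltbp1 (0.980 and 0.975), Phc2 and Ehbp1l1 for Ltbp3 (0.979 and 0.972) and S100a6 and Rhoc for Tgfb1 (0.965 and 0.963). For Tgfbr1, Pafah1b1 had 0.972, and it likewise had less in CAS129 MN (215 CPM) than in CAST MN (651 CPM). For Tgfbr3 the closest, Dab2 and Ehf, reached 0.796 and 0.794. Ehf was low, with a mean of 1.54 CPM in 129 MN and 0 to 0.487 in the other groups.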

How the data were processed

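RNA sequencing counts of 20 libraries were used. The authors deposited whole-number read counts per gene with no normalisation. Per the submitters' processing notes, STAR and GRCm38 (mm10) were used. Not given in the sources used here were the counting program, its annotation, its strand setting, and the genome used for lines other than BL6. By name, 20 of the table's 28 columns matched a sample; the other 8 columns were not used, and 7 samples without a matching column were not analysed here. Names and positions came from GENCODE M21 by identifier (27031 matched, 40 did not).

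Libraries were grouped by their labelled genotype and cell type. Tests used edgeR 4.0.16 in R 4.3.3 (TMM scaling, quasi-likelihood, 2-sided, Benjamini-Hochberg adjustment over all genes tested, threshold 0.05) on genes reaching 1 CPM in 2 or more of the fitted libraries. The fits covered MN against PSC over 17 libraries with genotype as a term, the same within genotypes and the difference of these changes in 1 fit over 8 groups, and genotypes within the 6 PSC and the 14 MN libraries, 13 comparisons in all. SE is the absolute log2 change over the square root of F. CPM per kb divides by the annotated exonic length. Alternatives were RLE and upper-quartile scaling, DESeq2 1.42.0, other filters, the replicate number as a block, other sets of libraries and leaving out each library. The procedure was tested on simulated data. All 28 pairs of replicates differed by more than sampling noise (chi-square over degrees of freedom at least 2.956).

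The 9 genes, the 4 pathway lists and the marker lists were chosen with earlier results of these data known. The text names the 9 genes, the 2 genes most like each over 20 libraries and, from each pathway list, up to 4 called genes of highest mean CPM in MN against PSC and up to 2 in a genotype comparison. Some genes that this rule names are not reported here.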

Additional observations from a re-analysis of the deposited data

Results flagged for a closer look

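In BL6 MN, 1 library lay far from the other 6 for 2 genes: library 7 for Tgfbr1, at 64.9 CPM against 93.4 to 100, and library 4 for Ltbp3, at 270 CPM against 140 to 183. By the same test, chance marks about 1 in 20 groups, and 9 groups of 7 libraries were tested here. CAS129 and BL6 differed in how much MN departed from PSC, by the test of the difference itself, for Tgfb1 (log2 2.88, adjusted p = 0.0026), Ltbp2 (1.94, adjusted p = 0.033) and Ltbp3 (1.36, adjusted p = 0.011), with the libraries these values rest on given above.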

How the results depend on the processing

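Of 1191 recomputed values over 75 results for single genes, 1094 kept their direction and their side of the threshold, 68 lost and 18 gained a call, and 11 reversed. All 11 reversals were of Tgfbr3, which was not called. Over BL6, CAST and CAS129 (log2 -0.08) leaving out 1 library gave -0.28 to 0.20, and it became 0.37 without PSC replicate 1 of all genotypes, 0.20 without BL6 PSC replicate 1, 0.04 and 0.05 without BL6 MN replicate 1 or 7, 0.14 without CAST MN and 0.05 without CAS129 PSC replicate 1. Within BL6 (0.20), where 1 library left out gave -0.32 to 0.84, it became -0.33 without PSC replicate 2 of all genotypes and -0.32 without BL6 PSC replicate 2, and within CAS129 (0.33), where the range was -0.35 to 0.78, it became -0.36, -0.09 without CAS129 MN replicate 3 and -0.35 without CAS129 PSC replicate 2. The 8 of 9 genes called in MN against PSC stayed 8 in all alternatives run, except 7 within CAS129 without CAS129 PSC replicate 1.

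Counts of genes called moved as follows, and the cause was not tested. For most of these settings, here and in Results, the count of all genes called is not given beside them. Whether the TGF-beta genes moved differently from all genes was not tested. The 3 genes of the difference between CAS129 and BL6 became 6 without PSC replicate 1 of all genotypes, and 2 to 4 with 1 library left out. In PSC, CAST against BL6 (1) became 2 with DESeq2, 3 without a filter and 3 in 1 fit over 8 groups, and 0 to 2 with 1 library left out. Over all genes in this comparison, DESeq2 called 1107 higher and 1115 lower, against 792 and 663 with edgeR. CAS129 against BL6 (2) became 4 without a filter and 4 in 1 fit over 8 groups, and 1 to 2 with 1 library left out, and CAS129 against CAST (1) became 2 without a filter and 0 to 1. In MN, 1 fit over 8 groups gave 0 for CAST against BL6 (5), 2 for 129 against BL6 (4), 3 for CAS129 against 129 (6) and 2 for 129CAS against CAS129 (5). With 1 library left out these gave 4 to 6, 1 to 6, 4 to 6 and 4. Leaving out the only CAST or 129CAS MN library leaves no such comparison in MN.

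Same-numbered PSC deviated together between BL6 and CAST (r = 0.355) and CAST and CAS129 (0.449), but not BL6 and CAS129 (-0.0078). With 2 PSC libraries a genotype, unequal numbers give the same values with the sign turned. These values therefore cannot settle whether equal replicate numbers pair the samples. With the replicate number as a block, CAST against BL6 gave 2 in PSC and 3 in MN, and CAS129 against CAST gave 2. The block added a call for Tgfb1 in CAST against BL6 PSC (-2.20, adjusted p = 0.036) and for Tgfb3 in the difference between CAS129 and BL6 (2.77, adjusted p = 0.044). Calls lost were Tgfbr2 (-1.08, adjusted p = 0.062) and Ltbp3 (-0.76, adjusted p = 0.083) in CAST against BL6 MN and Tgfbr3 in CAS129 against 129 MN (-0.75, adjusted p = 0.084).

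Upper-quartile scaling moved the median log2 change of all genes by 0.21 for CAS129 against CAST in PSC, 0.15 for CAS129 against BL6 and 0.17 for CAS129 against 129 in MN. The median difference between CAS129 and BL6 moved by -0.26 with RLE and -0.29 with DESeq2. Of the genes called for CAS129 against CAST in PSC, 16.2% were higher, and 29.0% with upper-quartile scaling. The lowest counts were those of the ligands and Tgfbr2 in CAS129 PSC replicate 2, at 0 to 5, against 22 to 30 in replicate 1. These libraries held 4.5 M and 5.51 M counts. Leaving out PSC replicate 1 or 2 of all genotypes, or the CAS129 libraries, was chosen after seeing the data.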
